A study of Mus musculus with 6 samples.

Results

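The genes described here are Ifitm1, Ifitm2, Ifitm3 and Ifitm6, 4 of the 20129 genes in the deposited expression table, taken as the rows with these symbols. They were chosen by their measured values in the same comparison that is described below, with those values already known. Their levels, differences and calls are therefore given as a description, without p-values, and nothing is read from how many of them were called. Sequenced RNA came from microglia, the resident macrophages of the brain, sorted as live (7AAD-), CD45+ and CD11b+ cells from the brains of mice aged 5 months on the C57BL6/J strain. The study compared 3 libraries of genotype 5xFAD (replicates 4, 5 and 6) with 3 libraries of genotype Il3-/-5xFAD (replicates 1, 2 and 3), and so asked how microglia of amyloid-bearing mice differ when interleukin-3 is missing. Every mouse, controls included, carried the 5xFAD transgenes, mutant human sequences driven by the neuronal Thy1 promoter; no group without them is used here. Each library was a pool of 4 mice, 2 male and 2 female, so any spread given here is a spread between pools, which are called by their replicate numbers below.

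The IFITM proteins are small membrane proteins, most of which are induced by interferons and block the fusion of enveloped viruses with cell membranes. IFITM1 acts mostly at the cell surface, whereas IFITM2 and IFITM3 sit mostly in endosomes and lysosomes. IFITM3 is also known to bind gamma-secretase, the protease that releases amyloid-beta from its precursor, and to raise its activity. In blood and bone marrow, myeloid cells such as neutrophils and monocytes express several members of the family. In the mouse the genes lie side by side on chromosome 7, in the order Ifitm5, Ifitm2, Ifitm1, Ifitm3 and Ifitm6.

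The sequences around the transcription starts are shown because a repeated GAAA pattern, known from many interferon-induced genes, occurs there in Ifitm2 and Ifitm3. Other interferon-related patterns are not reported. Each is the gene's strand from 80 bases before to 30 bases after the RefSeq start, read 5′ to 3′ in the GRCm38.p6 build, with capitals marking the pattern GAAA, 2 bases of any kind, GAAA. This pattern is the core of the interferon-stimulated response element.
Ifitm1, chr7:140967996-140968105, plus strand: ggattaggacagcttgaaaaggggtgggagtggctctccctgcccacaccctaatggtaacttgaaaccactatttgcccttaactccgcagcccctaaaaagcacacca
Ifitm2, chr7:140955932-140956041, minus strand: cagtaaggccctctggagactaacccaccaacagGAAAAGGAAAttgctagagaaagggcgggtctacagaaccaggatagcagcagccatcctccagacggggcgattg
Ifitm3, chr7:141010715-141010824, minus strand: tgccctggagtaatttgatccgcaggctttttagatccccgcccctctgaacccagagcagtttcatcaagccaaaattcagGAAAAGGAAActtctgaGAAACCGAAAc
Ifitm6, chr7:141016863-141016972, minus strand: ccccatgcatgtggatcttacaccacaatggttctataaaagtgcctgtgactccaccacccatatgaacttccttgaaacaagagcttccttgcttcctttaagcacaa

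The whole RefSeq window of each gene, 250 bases before to 50 bases after the start, was searched on both strands. Ifitm2 held 1 GAAA pair, whose first base lay 46 bases before the start. Ifitm3 held 2, beginning at bases 3 and 20 of the transcript. Neither Ifitm1 nor Ifitm6 held one in its 300 bases. Over all 32851 RefSeq windows of this length, 3.44% held the pattern, as did 28 of the 58 windows (48.3%) of a list of interferon-stimulated genes and 0 of the 19 windows of a list of neutrophil genes. The pattern TATAAA, found in 13.6% of all windows, began 46 bases before the start of Ifitm6. It also lay on the opposite strand of Ifitm2, 175 bases before the start. A match to such letters is a description and does not show a bound site, and the lack of one says only that the letters are not in the window.

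Levels are in CPM, which scales the reads of each library to a total of 1000000. Library totals lay between 27970850 and 37605490 reads, so that 1 read was worth 0.0266 to 0.0358 CPM. The targeted gene checked the labels: 5xFAD pools 4, 5 and 6 gave 54, 61 and 29 reads of Il3, and the 3 Il3-/-5xFAD libraries gave none. Differences are Il3-/-5xFAD minus 5xFAD on log2(CPM + 1), with their standard errors, from limma fitted to the 11900 genes that reached 1 CPM in 3 or more libraries; this scale understates the change of low genes. A gene was called at a limma adjusted p under 0.05, which held for 105 genes or 0.882% of those tested, 30 higher (0.252%) and 75 lower (0.63%) in Il3-/-5xFAD. On recovered reads edgeR with TMM factors called 60 genes, 25 higher and 35 lower. The median difference over all tested genes was -0.00059.

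Ifitm3, the endosomal antiviral member, had the highest level of the 4 in every library, also per length of transcript. It stood at 42.0, 68.6 and 60.0 CPM in 5xFAD pools 4, 5 and 6 and at 37.6, 44.4 and 43.8 CPM in Il3-/-5xFAD pools 1, 2 and 3. The groups overlapped, since 5xFAD pool 4 lay below Il3-/-5xFAD pools 2 and 3. The means were 56.9 ± 13.6 and 41.9 ± 3.76 CPM (SD, n = 3), and the log2 difference was -0.41 ± 0.16, which was not called. Without 5xFAD pool 4 it was -0.61 and called, and without 5xFAD pool 5 it was -0.26 and not called. Correcting each library for its trend with transcript length left -0.13.

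Ifitm2, the other endosomal member, had 11.2, 17.3 and 13.2 CPM in 5xFAD pools 4, 5 and 6, which came from 313, 507 and 497 reads. In Il3-/-5xFAD pools 1, 2 and 3 it had 5.78, 5.01 and 7.24 CPM, from 172, 141 and 239 reads. The groups did not overlap, and the highest Il3-/-5xFAD pool lay below the lowest 5xFAD pool. The means were 13.9 ± 3.13 and 6.01 ± 1.14 CPM (SD, n = 3), so that Il3-/-5xFAD stood at 43.2% of the 5xFAD mean. The log2 difference was -1.08 ± 0.20, a called fall. The call was lost without 5xFAD pool 5 (-0.92) or 6 (-1.10) and without Il3-/-5xFAD pool 1 (-1.06) or 2 (-0.98), and it held in 9 of 18 alternative settings.

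Ifitm2 can share reads with other gene models. When its GENCODE transcript was cut into all stretches of 50 bases, 48.5% were found in other genes too, most of them (36.1% of the gene's stretches) in Gm45717, a model on the same strand that overlaps Ifitm5 and Ifitm2. How reads on such stretches were counted is not given in the sources used here, so the level of Ifitm2 is uncertain. The same share was 10.02% for Ifitm3, 5.02% for Ifitm1 and 0% for Ifitm6. No member shared more than 3.30% of its stretches with another Ifitm gene.

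Ifitm6, a mouse member that has been studied less, had 9.58, 22.3 and 10.7 CPM in 5xFAD pools 4, 5 and 6 (268, 652 and 403 reads). It had 5.94, 1.88 and 2.55 CPM in Il3-/-5xFAD pools 1, 2 and 3 (177, 53 and 84 reads). The groups did not overlap. 5xFAD pool 5 stood well above the other 2 pools of its genotype, and Il3-/-5xFAD pool 1 above the other 2 of its own. The means were 14.2 ± 7.03 and 3.46 ± 2.18 CPM (SD, n = 3), and Il3-/-5xFAD stood at 24.4% of the 5xFAD mean. The spread between pools was wider than counting error. In 5xFAD pool 5 the exact 95% Poisson interval ran from 20.6 to 24.1 CPM, and in replicate 4 from 8.47 to 10.8 CPM; such intervals cover counting error only. The log2 difference of Ifitm6 was -1.78 ± 0.35, a called fall, and 20 of the 11900 tested genes had a lower one. The call was lost without 5xFAD pool 5 (-1.43) or 6 (-1.92) and without Il3-/-5xFAD pool 2 (-1.52), and it held in 6 of 18 alternative settings.

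Ifitm1, the cell-surface member, was near the lower end of detection. In 5xFAD, pools 4, 5 and 6 gave 61, 80 and 56 reads (2.18, 2.73 and 1.49 CPM). In Il3-/-5xFAD, pools 1, 2 and 3 gave 34, 21 and 0 reads (1.14, 0.746 and 0 CPM). The groups did not overlap. The count of 0 allowed up to 0.0909 CPM. The means were 2.13 ± 0.624 and 0.629 ± 0.580 CPM (SD, n = 3), and the log2 difference was -0.99 ± 0.34, which was not called and was called in 0 of 17 alternatives that tested it. Ifitm1 passed the filter on low values with all 3 libraries of 5xFAD but 1 of Il3-/-5xFAD, that is, through the group where it was high. Its difference was the one most dependent on the scale: -1.73 with a pseudocount of 0.25, -0.34 with a pseudocount of 5, and -1.77 by edgeR with TMM factors.

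In Ifitm1, Ifitm2 and Ifitm6 every Il3-/-5xFAD pool lay below every 5xFAD pool, and in Ifitm3 the groups overlapped. Such a separation downwards held for 11.5% of all tested genes and upwards for 9.65%. All 4 members had their highest level in 5xFAD pool 5. In these bulk samples fewer cells of a type and less RNA per cell cannot be told apart.

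**Figure D1:**
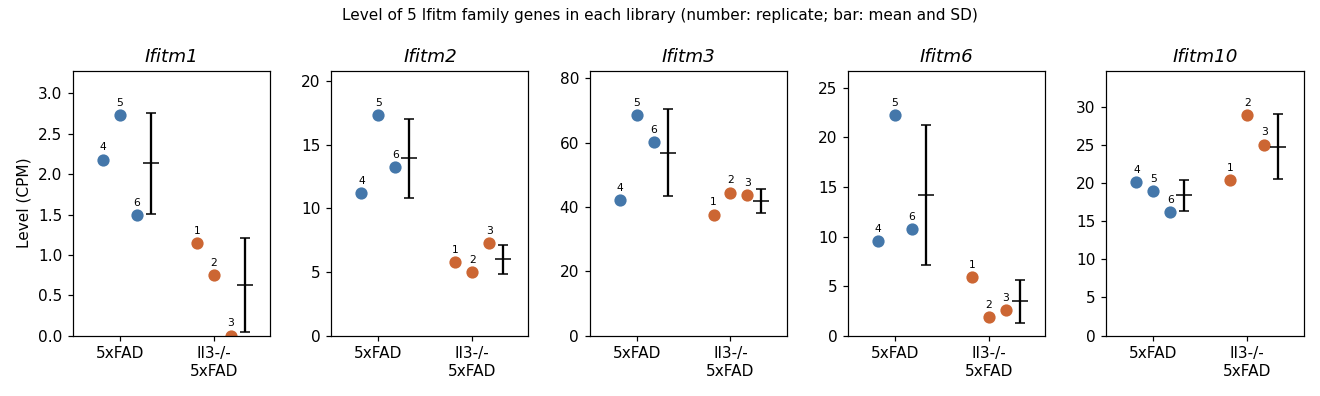
Levels of Ifitm1, Ifitm2, Ifitm3, Ifitm6 and Ifitm10 in CPM (vertical axes from 0, each with its own scale) in the 3 5xFAD libraries (blue) and the 3 Il3-/-5xFAD libraries (orange). Each point is 1 library with its replicate number, and bars are mean ± SD. Ifitm1, Ifitm2 and Ifitm6 separate by group, Ifitm3 overlaps, and Ifitm10 is higher in Il3-/-5xFAD.

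The table also held Ifitm10 and Ifitm5. Ifitm10, a distant member that is not known to be induced by interferon and is listed under the older symbol 6330512M04Rik, had 20.1, 18.9 and 16.1 CPM in 5xFAD pools 4, 5 and 6 and 20.4, 28.9 and 25.01 CPM in Il3-/-5xFAD pools 1, 2 and 3. All Il3-/-5xFAD pools lay above all 5xFAD pools, by a small gap between 5xFAD pool 4 and Il3-/-5xFAD pool 1. The log2 difference was 0.40 ± 0.15 and did not pass (limma adjusted p = 0.214), and in the 18 alternatives it ran from 0.29 to 0.53 without passing. Ifitm5, known from bone-forming cells, had 0 reads in 5 libraries and 8 reads (0.284 CPM) in Il3-/-5xFAD pool 2. Counts of 0 in the 5xFAD libraries allowed at most 0.107 CPM.

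Levels of the members can be set against each other only per length of transcript. Divided by the length of the longest GENCODE transcript, the order in 5xFAD was Ifitm3 at 62.0 to 101 CPM per kilobase, Ifitm2 at 17.1 to 26.5, Ifitm6 at 11.8 to 27.4 and Ifitm1 at 1.69 to 3.10. Ifitm2 and Ifitm6 overlapped and had no clear order there. In Il3-/-5xFAD the ranges were 55.5 to 65.5 for Ifitm3, 7.64 to 11.1 for Ifitm2 and 2.31 to 7.31 for Ifitm6, and these 3 did not overlap. Ifitm10, with a much longer transcript, stood at 4.73 to 5.89 CPM per kilobase in 5xFAD and 5.97 to 8.47 in Il3-/-5xFAD.

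Shares of the family followed from these levels. Ifitm3 supplied 66.4%, 64.0% and 71.6% of the summed CPM per kilobase of the 4 members in 5xFAD pools 4, 5 and 6 and 76.1%, 85.8% and 82.0% in Il3-/-5xFAD pools 1, 2 and 3. Ifitm6 supplied 12.6%, 17.3% and 10.7% in 5xFAD, and 10.03%, 3.03% and 3.98% in Il3-/-5xFAD. In the latter group the pool of replicate 1 had a share close to that of 5xFAD pool 6, and the other 2 pools had less. Ifitm2 supplied 18.3%, 16.7% and 16.3% in 5xFAD and 12.1%, 10.015% and 14.0% in Il3-/-5xFAD.

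The next question was whether other genes that interferons induce moved as well. Of 63 tested genes in the interferon-stimulated list, which left out the Ifitm genes, 0 were called higher and 0 lower by limma, beside 0.882% of all genes called. Their median log2 difference was -0.03, against -0.00059 for all tested genes, and 36 of the 63 differences were below 0. Without 1 library that median ran from -0.24 (Il3-/-5xFAD pool 2) to 0.07 (5xFAD pool 5), so its sign rested on single pools. In 2 of the 63 every Il3-/-5xFAD pool lay below every 5xFAD pool, and in 0 every one lay above, beside 11.5% and 9.65% of all tested genes. Ly6e, a surface protein that also hinders virus fusion and the most abundant gene of the list, averaged 1054 ± 112 CPM in the 5xFAD pools against 925 ± 98.9 CPM in the others (SD, n = 3), and its log2 difference of -0.19 ± 0.11 did not pass (limma adjusted p = 0.418). Lgals3bp, a secreted glycoprotein, averaged 662 ± 176 and 627 ± 174 CPM (limma adjusted p = 0.888).

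Upstream genes of the pathway were as follows. Of the interferon genes listed, 3 of 21 were found in the table and 1 was tested. Ifng, which encodes interferon-gamma and is made by T and NK cells, had 4.58, 5.23 and 10.1 CPM in 5xFAD pools 4, 5 and 6 and 3.86, 3.16 and 2.79 CPM in Il3-/-5xFAD pools 1, 2 and 3, without overlap. Its log2 difference of -0.78 ± 0.27 did not pass (limma adjusted p = 0.178). A separation downwards without overlap held for 11.5% of all tested genes. Ifnb1, which encodes interferon-beta, lay under the filter, with means of 0.997 CPM for 5xFAD and 0.763 CPM for Il3-/-5xFAD.

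Of 6 tested interferon receptor genes and 17 tested genes of interferon signalling, 0 were called, beside 0.882% of all tested genes. The medians were -0.06 and 0.05. Ifngr1 and Ifngr2, the chains of the interferon-gamma receptor, had log2 differences of 0.11 ± 0.10 and -0.05 ± 0.09 (limma adjusted p of 0.644 and 0.835). Irf8, a transcription factor of the myeloid lineage, differed by 0.02 ± 0.08. Socs3, a feedback inhibitor of cytokine signalling, differed by 0.36 ± 0.14 (limma adjusted p = 0.228).

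Genes that work beside the IFITM proteins were counted too. The lists held 13 tested genes of other virus-entry and restriction factors, 17 that modify or bind IFITM3 and 7 of gamma-secretase. In each list 0 were called, beside 0.882% of all tested genes. The medians were -0.16, 0.005 and -0.17. The lowest differences were -0.67, -0.64 and -0.42, and the highest 0.16, 0.16 and 0.07. Differences below 0 numbered 10 of 13, 8 of 17 and 5 of 7. Serinc3, a membrane protein that lowers the infectivity of virus particles, averaged 4058 ± 80.8 CPM with and 4259 ± 262 CPM without Il3 (limma adjusted p = 0.816). Ncstn, which encodes the gamma-secretase subunit nicastrin, had a log2 difference of -0.01 ± 0.08 (limma adjusted p = 0.979).

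Markers of cell types were examined because the sort keeps any live CD45+ CD11b+ cell. Microglia markers were abundant in all libraries and 0 of 13 were called, beside 0.882% of all tested genes. Their summed level was 39574 to 41626 CPM in 5xFAD and 40920 to 44807 CPM in Il3-/-5xFAD. Csf1r, which encodes the receptor of the microglial growth factor, had a log2 difference of 0.12 ± 0.14 (limma adjusted p = 0.722).

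Of 17 tested neutrophil markers, 5 fell and 0 rose, the median log2 difference was -1.87, and 16 differences were below 0. In 14 every Il3-/-5xFAD pool lay below every 5xFAD pool. Over all tested genes 0.63% were called lower and 11.5% separated downwards. The summed level was 1961 to 4142 CPM in 5xFAD and 922 to 1516 CPM in Il3-/-5xFAD. S100a8 and S100a9, the calprotectin subunits, and Camp and Mmp9, products of neutrophil granules, were 4 of the 5 (log2 differences of -2.14, -2.06, -2.23 and -1.95, limma adjusted p from 0.0409 to 0.0475). None of these 4 calls held without 5xFAD pool 5 or without 5xFAD pool 6, and none by edgeR. Of the 18 alternatives, 7 called S100a8, 6 S100a9, 9 Camp and 6 Mmp9. Of 3 listed neutrophil markers below the filter, Stfa2 was at 0 in all Il3-/-5xFAD libraries and Ly6g at 0 in Il3-/-5xFAD pool 2.

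Of 16 tested monocyte markers, 3 fell, 0 rose and 13 did not pass, with a median of -0.94. Their summed level was 682 to 893 CPM in 5xFAD and 520 to 684 CPM in Il3-/-5xFAD, ranges that overlapped. The 3 were Ly6c2, a surface marker of inflammatory monocytes (-1.73 ± 0.28), Gda, a guanine deaminase gene (-1.63 ± 0.30), and the integrin gene Itgal (-1.16 ± 0.20), with limma adjusted p of 0.0220, 0.0316 and 0.0270; none of the 3 calls held without 5xFAD pool 5 or 6, and that of Itgal was also lost without Il3-/-5xFAD pool 2. Of 14 tested T cell markers 3 fell, Cd3d and Cd3g of the T-cell receptor complex and the kinase gene Lck, with a median of -1.08 and a summed level of 108 to 246 CPM in 5xFAD and 55.3 to 77.5 CPM in Il3-/-5xFAD. The calls of all 3 were lost without 5xFAD pool 6, those of Cd3d and Lck also without Il3-/-5xFAD pool 2, and that of Cd3d also without 5xFAD pool 4 or Il3-/-5xFAD pool 1. Of 4 tested choroid plexus markers 2 fell, Ttr and Enpp2, with a median of -1.47; neither call held without 5xFAD pool 6, and leaving out Il3-/-5xFAD pool 1 or 3 ended that of Enpp2 too. Of 9 tested markers of endothelial cells, which line blood vessels, 0 were called, with a median of -0.34 and summed levels of 153 to 196 and 135 to 149 CPM. Of 9 tested NK cell markers 0 were called, but all 9 differences were below 0, with a median of -0.51. In 7 of the 9 every Il3-/-5xFAD pool lay below every 5xFAD pool, beside 11.5% of all tested genes. Their summed level was 78.3 to 93.5 CPM in 5xFAD and 46.1 to 54.8 CPM in Il3-/-5xFAD. Of 9 tested border macrophage markers, 2 B cell markers and 1 fibroblast marker, 0 were called in each list. Such counts of 0 stand beside 0.882% of all tested genes called.

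Markers of mural cells, the smooth muscle cells and pericytes of vessels, went the other way in part. Of 6 tested, 2 rose and 0 fell, with summed levels of 9.65 to 26.6 CPM in 5xFAD and 12.5 to 21.3 CPM in Il3-/-5xFAD. The differences were split, 3 above 0 and 3 below it, from -1.65 to 1.73. Their median of 0.55 therefore lay between opposed values. Every Il3-/-5xFAD pool lay above every 5xFAD pool in 3 of the 6 and below in 2. The 2 were Myh11, a smooth muscle myosin gene (1.73 ± 0.31, limma adjusted p = 0.0299), and Tagln, a smooth muscle actin-binding protein gene (1.47 ± 0.30, limma adjusted p = 0.0457). Both are low genes, and by edgeR with TMM factors their differences were 3.69 and 2.56, where Myh11 was called and Tagln was not. Both calls were lost without 5xFAD pool 5 or 6, that of Myh11 also without Il3-/-5xFAD pool 1, and that of Tagln also without 5xFAD pool 4 or Il3-/-5xFAD pool 2. A sort on CD45 and CD11b keeps neutrophils and monocytes, whereas most T cells lack CD11b, and choroid plexus, endothelial and mural cells lack CD45 and would be removed. The part of these other cell types in the Ifitm differences was not tested.

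**Figure D2:**
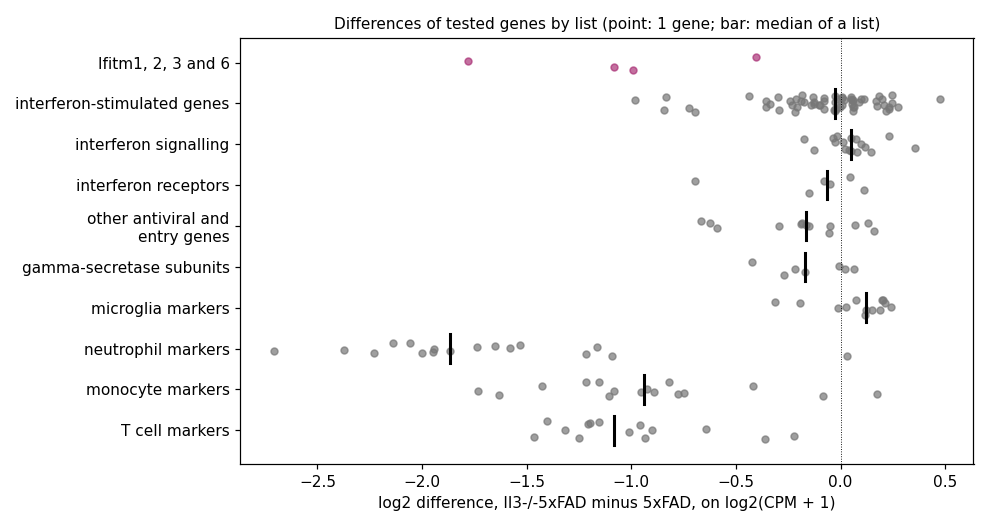
Log2 difference, Il3-/-5xFAD minus 5xFAD on log2(CPM + 1) (horizontal axis), of each tested gene of the lists named on the vertical axis; each point is 1 gene and each bar is a list's median. The interferon-stimulated genes lie around 0 (median -0.03), most neutrophil and monocyte markers below it (medians -1.87 and -0.94, with 1 gene above 0 in each list), and the 4 Ifitm genes, which were chosen by these values and have no bar, between -1.78 and -0.41.

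The levels of Ifitm6 and Ifitm2 followed those of the neutrophil and monocyte lists across pools, while Ifitm3 did so less closely. Over the 6 libraries Pearson's r of Ifitm6 was 0.93 with the neutrophil list (the mean of its log2 levels) and 0.95 with that of the monocyte list. After each group's mean had been subtracted these values were 0.80 and 0.83. For Ifitm2 they were 0.94 and 0.92, and 0.86 and 0.69 after subtraction. With the interferon-stimulated list, r was 0.26 for Ifitm6 and 0.28 for Ifitm2, and 0.17 and 0.23 after subtraction. Some other lists gave positive values too. With the endothelial list r was 0.73 for Ifitm6 and 0.83 for Ifitm2, and 0.16 and 0.40 after subtraction. With the border macrophage list it was 0.64 and 0.70, and 0.34 and 0.56 after subtraction. Further lists changed sign. For Ifitm6 and Ifitm2 the T cell list gave 0.62 and 0.66, but -0.38 and -0.62 after subtraction. The choroid plexus list gave 0.58 and 0.66, but -0.49 and -0.57 after it. With the microglia list r was -0.53 and -0.56, but 0.27 and 0.47 after it. With the interferon signalling list r was -0.235 and -0.36, but 0.27 and 0.07 after it. Values over the 6 libraries also hold the group difference by which the members were chosen.

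Ifitm3 showed the other order within groups. Its r was 0.71 with the interferon-stimulated list and 0.76 with the neutrophil list, and after subtraction of group means 0.80 and 0.48. With the endothelial list the r of Ifitm3 was 0.75, and 0.47 after subtraction, close to that with the neutrophil list. Ifitm1 gave 0.36 with the interferon-stimulated list and 0.64 with the neutrophil list, and 0.33 and -0.03 after subtraction. Ifitm10 ran against several lists, with r of -0.93 for the monocyte, -0.89 for the endothelial, -0.87 for the neutrophil and -0.83 for the border macrophage list. After subtraction these values were -0.83, -0.73, -0.65 and -0.75. Among the members, r was highest between Ifitm6 and Ifitm2 (0.91, and 0.56 after subtraction), followed by Ifitm6 with Ifitm1 (0.86 and 0.57) and Ifitm2 with Ifitm3 (0.82 and 0.70). After subtraction the pair of Ifitm2 and Ifitm3 ranked first. These values describe 6 points that share group and library, the differences between them were not tested, and they show no source of the transcripts.

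**Figure D3:**
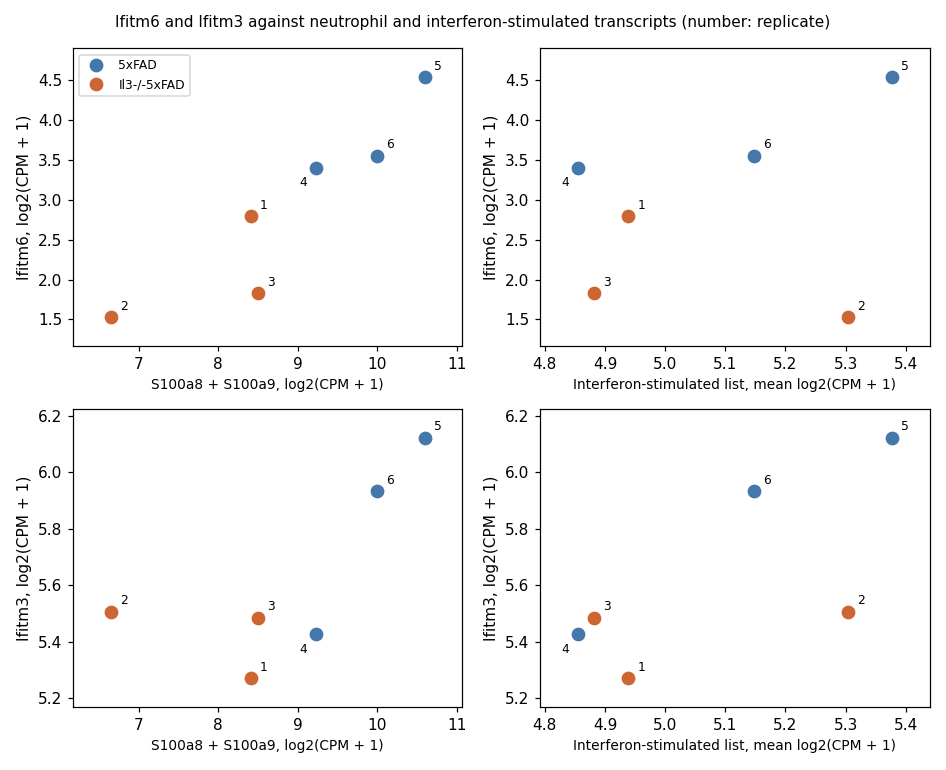
Levels of Ifitm6 (top) and Ifitm3 (bottom), as log2(CPM + 1), against the sum of S100a8 and S100a9 as log2(CPM + 1) (left) and the mean log2(CPM + 1) of the 63 interferon-stimulated genes (right); each point is 1 library with its replicate number, blue for 5xFAD and orange for Il3-/-5xFAD. Ifitm6 is ordered nearly as the neutrophil transcripts are. Il3-/-5xFAD pool 2 is lowest for both, and its interferon-stimulated level is the second highest. The source of the transcripts was not tested.

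Ratios of reads within a library were formed as well. For every 100 reads of S100a8 and S100a9 together, Ifitm6 had 1.59, 1.44 and 1.05 reads in 5xFAD pools 4, 5 and 6 and 1.75, 1.90 and 0.707 reads in Il3-/-5xFAD pools 1, 2 and 3. These ratios overlapped between the groups. For Ifitm2 they were 1.86, 1.12 and 1.29 in 5xFAD and 1.70, 5.04 and 2.01 in Il3-/-5xFAD, and for Ifitm3 6.98, 4.43 and 5.87 against 11.1, 44.8 and 12.2. Relative to calprotectin transcripts, Ifitm3 was thus higher in every Il3-/-5xFAD pool. It was so most of all in replicate 2, where S100a8 and S100a9 summed to 99.3 CPM against 339 and 360 CPM in the other 2 pools. This direction follows from the differences already given, -2.14 for S100a8 and -2.06 for S100a9 against -0.41 for Ifitm3. It is no separate result.

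The same was done against an interferon-stimulated transcript. Bst2, which encodes the antiviral membrane protein tetherin, was picked for this after its values had been seen. For every 100 reads of Bst2, Ifitm3 had 42.9, 53.6 and 54.2 reads in 5xFAD and 46.9, 40.3 and 41.2 reads in Il3-/-5xFAD, which overlapped. Ifitm2 had 11.4, 13.5 and 11.9 reads against 7.20, 4.54 and 6.83, and Ifitm6 had 9.78, 17.4 and 9.67 reads against 7.41, 1.71 and 2.40. Both were lower in every Il3-/-5xFAD pool. Bst2 itself had a log2 difference of only -0.19 ± 0.13, so these ratios mostly restate the separation of Ifitm2 and Ifitm6 given above.

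Among the 9805 tested genes whose mean reached 5 CPM, those whose levels were most like those of each member over the 6 libraries were ranked by Pearson's r. The 5 nearest to Ifitm6 were Csgalnact2 (r 0.990), Mxd1, Dnase1l1, Nr3c2 and Lilrb3, the last an inhibitory receptor of myeloid cells; 39 genes had an r above 0.95. The 5 nearest to Ifitm2 were Gatsl3 (0.996), Aldh3b1, Lyz2, Myl12b and Eif3e. Lyz2 encodes lysozyme, which neutrophils, monocytes and macrophages make, and had an r of 0.993.

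The 5 nearest to Ifitm3 were Cpd (0.988), Dhrs1, Tpm4, Gm12942 and Capza1, and the 5 nearest to Ifitm1 were Apobec1 (0.994), Tmbim1, Paip2b, Mipep and Rnf149. None of the 4 sets of 5 shared a gene. After group means had been subtracted, the nearest were Fam103a1 for Ifitm6, Ndufv3 for Ifitm2, Kpna2 for Ifitm3 and Ppil1 for Ifitm1, and Dhrs1 was among the 5 nearest to Ifitm3 both times. With 6 libraries and so many genes, values this high arise for many genes. Per member, 26 to 67 genes lay above 0.95 before subtraction of group means, and 40 to 151 after it.

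Genes beside the cluster on chromosome 7 were examined next. Of the 10 genes of the table on either side in RefSeq order, 13 were tested and 0 were called, beside 0.882% of all tested genes. Their log2 differences ran from -0.52 to 0.25, with a median of -0.07. Rnh1, an inhibitor of ribonucleases and the most abundant neighbour, averaged 126 ± 8.13 CPM in the 5xFAD pools and 115 ± 9.63 CPM in the others (limma adjusted p = 0.520). Phrf1, the next most abundant, was at 83.5 ± 8.56 and 91.1 ± 8.17 CPM (limma adjusted p = 0.585). The 4 members had differences from -1.78 to -0.41.

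Transcript length moved with the comparison. Over genes of all kinds, the fifth with the shortest transcripts had a median log2 difference of -0.14 and the fifth with the longest one of 0.09. The 4 members have short transcripts of 655 to 882 bases. Among the 291 tested genes of 600 to 900 bases, a range set after the values had been seen, the median was -0.25, the quartiles were -0.42 and -0.07, and 81.1% of differences were below 0. Ifitm3, at -0.41, lay inside these quartiles, near the lower one, and Ifitm1, Ifitm2 and Ifitm6 lay below them. In 30.2% of these short genes every Il3-/-5xFAD pool was below every 5xFAD pool. With each library corrected for its trend with length, the differences were -0.77 for Ifitm1, -0.80 for Ifitm2, -0.13 for Ifitm3 and -1.54 for Ifitm6, none of them called, and Ifitm2 and Ifitm6 thereby lost their calls.

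**Figure D4:**
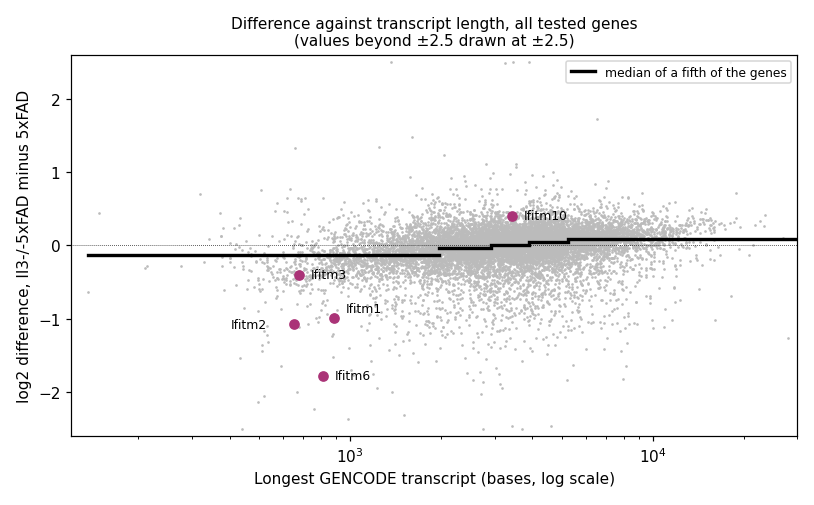
Log2 difference, Il3-/-5xFAD minus 5xFAD on log2(CPM + 1) (vertical axis, values beyond ±2.5 drawn at the edge), against the longest GENCODE transcript in bases (log axis) for all tested genes with a known length (grey). Black lines are the medians of 5 equal groups by length, from -0.14 to 0.09; 4 short Ifitm genes lie below 0 and the longer Ifitm10 above it.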

How the data were processed

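The authors deposited 1 table of CPM values for 20129 genes in 6 libraries, from libraries of a directional polyA kit, per the labels' protocols. STAR, HTSeq, edgeR and the build mm9 are named in the submitters' processing notes, without versions; the counting mode is not given in the sources used here. All values (100%) were whole multiples of 1 read within 0.01 reads, so reads were recovered from the deposited CPM for count tests. The 11900 genes reaching 1 CPM in 3 or more libraries were tested with limma 3.58.1 in R 4.3.3 (eBayes with trend, two-sided) on log2(CPM + 1), with Benjamini-Hochberg adjustment over all of them. Each library was 1 pool, so the p-values set the group difference against the spread between pools, which limma moderates across genes. Nothing in the labels says how the mice of a pool were related. No pair of libraries within a group agreed within sampling noise (chi-square over its degrees of freedom at least 22.1).

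Members, gene lists, tests and alternatives were chosen with earlier results of these data known. Named genes were the Ifitm family, Il3, in each list up to 4 called genes or else the 2 most abundant, the 5 genes most like each member, and called or the 2 most abundant neighbours; for some lists only counts are given, and some items of the rule are not reported here. The alternatives changed the pseudocount (0.25 or 5), the filter (none, or a mean reaching 5 CPM) or the scaling (median-ratio, quantile), or used eBayes without trend or with robust estimation, a lowess length correction (span 0.3), each library left out, edgeR 4.0.16 and DESeq2 1.42.0. On simulated reads of 11765 genes with 200 changed, 93% of 2-fold and 100% of 4-fold changes were recovered, with 6 of 199 calls false. The simulation gave every gene the same relative spread beyond counting error, at a value not taken from these libraries. Its rates therefore check the procedure only and do not carry over to these data.

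The reference at hand was GRCm38 and not mm9. Promoter sequences and their coordinates are from RefSeq (GRCm38.p6, all 4 members matched by symbol), gene order from the RefSeq table (18749 of 20129 symbols found, 1812 by an older symbol), and lengths from GENCODE (19465 genes). Figures were drawn with matplotlib 3.10.9.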

Additional observations from a re-analysis of the deposited data

How the results depend on the processing

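No paired analysis was possible because the groups share no replicate number. The number of genes called, 105, was 8 with no filter, 68 with a filter on means reaching 5 CPM, 68 with median-ratio rescaling, 10 without the variance trend, 60 with the length correction, 60 and 69 by edgeR with TMM factors and with library totals only, and 605 by DESeq2. Leaving out 1 library gave 15 (without 5xFAD replicate 6) to 605 (without Il3-/-5xFAD replicate 3). All 4 members kept a negative difference in every setting that fitted them, and Ifitm1 was not tested with that filter on means. Ifitm1 moved to -1.73 with a pseudocount of 0.25, to -0.34 with a pseudocount of 5, and to -1.77 by edgeR, with either scaling, and by DESeq2. Ifitm2 moved to -0.77 with a pseudocount of 5 and to -0.80 with the length correction, which took Ifitm3 to -0.13. Leaving out 1 library, Ifitm1 ran from -1.23 to -0.68, Ifitm2 from -1.22 to -0.92, Ifitm3 from -0.61 to -0.26, Ifitm6 from -2.15 to -1.43 and Ifitm10 from 0.29 to 0.53. Only small, uncalled differences changed sign: Ncstn to 0.0057 with the length correction. Leaving out 1 library, Ncstn ran from -0.044 to 0.044, Ifngr2 from -0.11 to 0.014 and Lgals3bp from -0.29 to 0.12. The causes were not tested. Depth limits Ifitm1 and Ifitm5 most, at 0 to 80 reads per library.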
